A study of Drosophila melanogaster with 2 samples.

Results

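The 7 genes described here, sll, CG42680, CG6191, CG42807, CG13334, Gpat4 and CG44838, have the transcription start sites (TSSs) nearest to the strongest binding of the Drosophila segmentation factor Krüppel (Kr). They were chosen by peak signal from all 13945 protein-coding genes on the 6 chromosome arms. Of the 9 highest of 2102 peaks, 8 have one of these genes as nearest, with a pair of peaks at CG13334. The remaining peak, of rank 4, lies nearest to Kr itself, in an intron of CG9380. The signal is therefore a given of the choice, and it is described below without a test.

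Binding was measured by ChIP-seq in whole embryos of mixed sex, 0 to 10 h old, from 1 transgenic strain (Kr-GFP) that carries a stable transgene for Kr fused C-terminally to GFP (the eGFP form). The labels differ on the antibody: the description gives one to GFP, while the antibody field names Kr. If it was to GFP, the signal is that of tagged Kr, and if to Kr, untagged protein could add to it. The labels do not say whether the line keeps its untagged Kr. The 2 biological replicates, numbered 2 and 3, form 1 group. Each collection mixes stages and cell types, so strong binding in few cells and weak binding in many cannot be told apart. The files hold peaks and no read counts, and the depth is unknown. A list of peaks passing an irreproducible discovery rate (the IDR list) was used with permissive lists, of 30000 peaks each, called on replicate 2, on replicate 3 and on their pooled alignments. Peak signal is the authors' value on a scale they do not state, taken as linear in the ratios and means below.

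Kr is a zinc-finger protein that acts mainly as a repressor and, as a gap gene product, places the stripes of segmentation genes in the central embryo. None of the 7 genes belongs to the textbook segmentation network. Slalom (sll) encodes a Golgi transporter of the sulphate donor used to modify proteoglycans, and Gpat4 encodes glycerol-3-phosphate acyltransferase 4, an enzyme of glycerolipid synthesis. RefSeq lists the products of CG42680, CG6191, CG42807, CG13334 and CG44838 as uncharacterized proteins. By the Ensembl annotation they run from 60 residues for CG42680 to 828 for the longest form of CG44838.

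The sequences under the peaks at sll, CG42680 and CG44838 are shown as examples of peaks that carry the Kr core word AAGGGTT, 3 of the 5 that have it. They were read from the RefSeq copy of the dm6 assembly, forward strand, with the core word in capitals. The first pair span 100 bp on either side of the pooled summit and are intergenic. The last is a 25-base stretch around the word, since that peak lies in a 5′ UTR.
sll, chr3R:17604773-17604973: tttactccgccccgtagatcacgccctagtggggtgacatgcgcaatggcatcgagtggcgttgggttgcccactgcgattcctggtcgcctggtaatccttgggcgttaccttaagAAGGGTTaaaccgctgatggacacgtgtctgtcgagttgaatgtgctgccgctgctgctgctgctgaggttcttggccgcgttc
CG42680, chr2L:14588929-14589129: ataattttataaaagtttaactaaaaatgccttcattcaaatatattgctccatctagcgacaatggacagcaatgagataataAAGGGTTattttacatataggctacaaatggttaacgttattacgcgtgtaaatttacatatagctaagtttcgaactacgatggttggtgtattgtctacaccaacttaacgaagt
CG44838, chr3L:9462107-9462131: ttatatggaAAGGGTTagcatggcg
The first pair differ widely in composition. The sll window has 57.7% G or C and the CG42680 window 31.3%, against a median of 43.8% over all IDR peaks.

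The core word was found within 100 bp of the summit, on either strand, at 5 of the 8 peaks. It was held by 12.5% of all IDR peaks and 4.39% of pooled peaks outside the IDR list. The share rose towards the top of the IDR list, to 21.1% of the peaks of rank 11 to 100. The 8 peaks were chosen by signal, so the share of the whole list is not that of peaks of like signal. Whether the count is particular to these genes was not tested. The reversed word TTGGGAA, a control for composition, was found at 0 of the 8 and at 3.57% of IDR peaks. The centre of the word lay 20 bp from the summit at sll, 13 bp at CG42680, 24 bp at Gpat4, 8 bp at the outer CG13334 peak (rank 8) and 31 bp at CG44838. Over the 263 IDR peaks with the word, the median distance was 29 bp. Longer forms, which contain the core, were also found. AAGGGTTA was present at 4 of the 8 peaks, all of the above but Gpat4, against 5.14% of IDR peaks. AAAGGGTTA was present at CG42680, the outer CG13334 peak and CG44838, 3 of the 8, against 3.9% of IDR peaks.

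The 3 peaks without the core word were those of CG6191 (rank 3), CG42807 (rank 6) and the inner peak of CG13334 (rank 7), and the whole of each peak, 882, 512 and 466 bp wide, lacked it too. Even there, and at all 8 peaks, at least 8 of the 9 letters of AAAGGGTTA were matched somewhere within 100 bp, which held for 19.1% of IDR peaks. Another form, AANGGGTT, was chosen after the data were seen. It has any base at N and the other letters fixed, so a peak with the core word need not have it. This form was found at 5 of the 8 and at 14.7% of IDR peaks. CG6191 had it at 2 places, centred 18.5 and 74.5 bp from the summit, while sll did not have it. A word is a description of the sequence and not a mapped site.

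**Figure D1:**
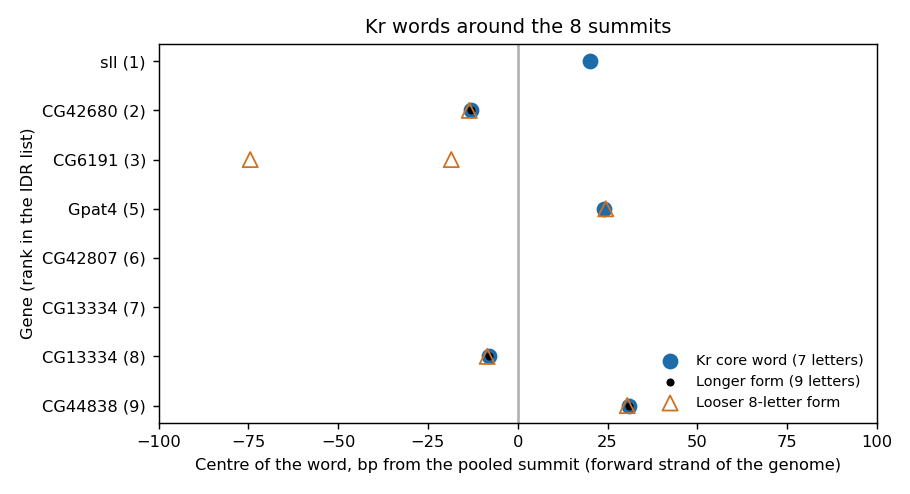
Position of Kr words around the summits of the 8 peaks, in bp along the forward strand, with the rank in the IDR list in brackets. The core word (filled circles) lies within 31 bp of the summit at 5 peaks, and black dots mark its 9-letter form at 3 of them. Open triangles mark the 8-letter form AANGGGTT (named looser in the legend), present at 2 places at CG6191.

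Words of other early factors were searched in the same windows. GGATTA, bound by the anterior morphogen Bicoid, was found at 3 of the 8 (sll, CG42807 and CG44838) and at 6.37% of IDR peaks, centred 3.5, 15.5 and 21.5 bp from the summits. CAGGTAG, the word of the early activator Zelda, was found at 1 of the 8, the inner CG13334 peak, 66 bp from its summit, and at 3.28% of IDR peaks. Another 4 words were each found at 0 of the 8. The word GAGAGAG of the chromatin protein GAGA factor was present at 9.37% of IDR peaks. The word TTTATTG of the posterior factor Caudal was present at 7.8% of them. For CATAAAA of the gap protein Hunchback the share was 9.13%. For CACATG, an E-box of the mesoderm factors Twist and Snail, it was 11.1%.

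The highest peak of all, at sll, had a signal of 1283 in replicate 2 and 729 in replicate 3 (mean 1006 ± 392, SD, n = 2), ranking 1 and 2 in their lists. The CG42680 peak had 935 and 869 (902 ± 46.8, SD, n = 2), ranking 3 and 1. Its ratio of replicate 2 to replicate 3, 1.08, was the lowest of the 8, against a median of 1.46 over the IDR peaks matched in both. Nearest to that median was the outer CG13334 peak, at 1.47. CG6191 had 993 and 518 (755 ± 336, SD, n = 2), and so exceeded CG42680 in replicate 2 and fell below it in replicate 3. The order of these 3 peaks was thus not the same in both replicates, but only the place of CG42680 changed, and sll was above CG6191 in both. Their means differed by less than the larger SD, which includes the higher values of replicate 2.

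Gpat4 had 636 and 485 (560.3 ± 106, SD, n = 2) and ranked 5 in either replicate. CG42807 had 525 and 282 (403 ± 172, SD, n = 2). The inner CG13334 peak had 507 and 328 (418 ± 127, SD, n = 2), and the outer one 464 and 316 (389.9 ± 105, SD, n = 2). CG44838 had 478 and 244 (361 ± 165, SD, n = 2), ranking 8 and 17. The means at CG42807, CG13334 and CG44838 differed by less than these SDs, which include the higher values of replicate 2 at every peak. Within each replicate, CG44838 was below CG42807 and the inner CG13334 peak, and the inner CG13334 peak was above the outer one. The order of the other pairs of these peaks changed between replicates. All 8 peaks ranked among the first 50 of both replicates, as did 1.52% of IDR peaks, and the pooled reads that set the choice hold both replicates, so nothing is read from that count.

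**Figure D2:**
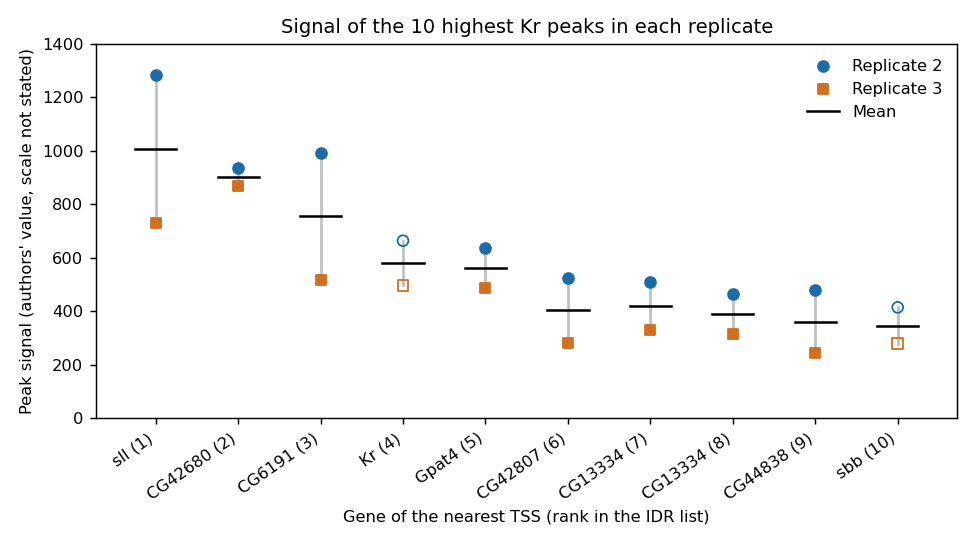
Peak signal (authors' value, scale not stated) in replicate 2 (circles) and replicate 3 (squares) at the 10 highest IDR peaks, with bars at the mean. Filled symbols are the 8 peaks of the 7 genes, from 1283 at sll in replicate 2 down to 244 at CG44838 in replicate 3, and open symbols are the peaks nearest to Kr and sbb.

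Replicate 2 gave the higher value at 8 of 8 peaks, as it did at 81.2% of the IDR peaks matched in both replicates. The ratio of replicate 2 to replicate 3 ran from 1.08 at CG42680 to 1.96 at CG44838, with a median of 1.65, against 1.46 over the 2079 IDR peaks matched in both. Summits fell at nearly the same base in both replicates. They were 0 bp apart at both CG13334 peaks, 6 bp at CG44838 and at most 36 bp, at CG42807. The median was 13.5 bp, against 34 bp over all matched IDR peaks. Small offsets were not particular to these genes, with 8 bp at the Kr peak (rank 4) and 16 bp at the sbb peak (rank 10).

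Just inside the limit, the CG44838 peak had a signal of 695 in the IDR list, and just outside, the peak of rank 10 in an intron of sbb, a co-repressor gene, had 686. Of the genes outside the list, Kr, sbb and px (plexus, a wing vein gene) had the signals most like the members' medians, by the sum of absolute log2 differences over the 2 replicates. These sums were 0.52, 1.00 and 1.05. The Kr peak had 664 and 497, the sbb peak 414 and 278, and the px peak 339 and 328. The core word was present at the Kr peak and absent at those of sbb and px.

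The 8 summits lay 133 to 8729 bp from the nearest protein-coding TSS, with a median of 2539 bp, against 2134.5 bp over all IDR peaks. That median falls between 2 sets and describes neither. The summits at sll, CG42680, Gpat4 and CG44838 lay 133 to 1233 bp away. The 4 at CG6191, CG42807 and CG13334, which share 1 stretch of 2R and are not independent, lay 3845 to 8729 bp away. A TSS within 500 bp was found for 1 of the 8, Gpat4, against 28.9% of IDR peaks. The next nearest were at CG44838, 519 bp away, and at CG42680, 795 bp away. The sll peak (3R, 17604497 to 17605211) was 1233 bp upstream of the only annotated sll TSS. The CG42680 peak (2L, 14588805 to 14589271) was 795 bp upstream of a gene of 315 bp that RefSeq marks as partial. On its other side, the nearest protein-coding TSS was 26523 bp away, that of Adhr, next to the alcohol dehydrogenase gene. The CG44838 peak (3L, 9461772 to 9462335) sat in a 5′ UTR of that gene, between a TSS 1038 bp away and another 519 bp away.

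At Gpat4 the summit (peak at 2R, 24068686 to 24069186) lay between alternative TSSs of the gene, 160 bp downstream of the first and 133 bp upstream of the next, in a 5′ UTR. It was also 432 bp from the TSS of yki, the divergent neighbour, which encodes the co-activator of the Hippo growth pathway. The gene yki is named here after its position was seen. The CG6191 peak (2R, 13584137 to 13585018) was in an intron, 8729 bp downstream of the TSS. That TSS is shared with CG45088, whose body overlaps that of CG6191 (RefSeq marks CG6191 as dicistronic), so that either gene meets the rule. The CG42807 peak (2R, 13566395 to 13566906) was intergenic, 5913 bp downstream of its TSS and beyond the end of the gene. The CG13334 peaks (2R, 13563643 to 13564108 and 13561624 to 13562592) were intergenic too, 5296 and 3845 bp downstream of the TSS.

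A TSS of a known developmental regulator, from a hand-made list of 153 genes, lay within 100 kb of 1 of the 8 summits, against 34.1% of IDR peaks. That was noc (no ocelli, a zinc-finger gene), 98.2 kb from the CG42680 summit. The 8 summits form 5 distinct loci, since the 4 at CG6191, CG42807 and CG13334 share 1 stretch and are not independent. By locus the count was 1 of 5, so no lack of regulators is read from it. The nearest listed genes were 406.6 to 428.8 kb away for the 4 peaks at CG6191, CG42807 and CG13334 (mam, a Notch co-activator), 420.3 kb for CG44838 (Doc1), 631 kb for sll (repo) and 746 kb for Gpat4 (Dll).

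All 7 genes had an IDR summit within 20 kb of the TSS nearest to their highest peak, since each of the 8 summits is itself that close, against 38.7% of protein-coding genes. Nothing is read from that count. The windows held 28 distinct IDR summits, of which 20 were not among the 8 peaks. Around sll, with 2 IDR summits, and CG42680, with 1, the highest peak stood nearly alone. As many were found around 17.2% and 38.7% of genes. The second IDR summit at sll was 911 bp from the first, ranked 1487 with a signal of 118, had 109 in replicate 2 and had no summit within 250 bp in replicate 3. The sll peak was 17.0 times this next highest pooled summit within 20 kb. CG42680 had no second IDR summit, and the nearest one lay 31995 bp away. Its peak was 21.0 times the next pooled summit in range, which had a signal of 85.7, below the lowest of the IDR list (103).

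The surroundings of this pair differed in the permissive lists. Around CG42680 there were 30 summits in replicate 2 and 35 in replicate 3, against medians of 8 and 9 around all protein-coding genes, and 21 of the 30 had a replicate 3 summit within 250 bp. As many summits were found around 2.09% of genes in replicate 2 and 0.394% in replicate 3. The window held 1 protein-coding TSS, that of CG42680, and 3 transfer RNA genes. Around sll there were 18 and 16 summits, as many as around 14.4% and 17.3% of genes. Of the 18, 5 were matched (27.8%, against 52.0% of all replicate 2 summits). That window held 12 protein-coding genes, among them the salivary glue genes Sgs5 and Sgs5bis, and 8 transfer RNA genes.

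CG6191, CG42807 and CG13334 share 1 stretch of 2R, so their windows overlap and their counts are not independent. From the outer CG13334 summit to that of CG6191, 22.2 kb, there were 15 IDR summits. The IDR count was 16 around CG42807, 13 around CG13334 and 6 around CG6191, and as many were found around 0.0645%, 0.108% and 1.08% of genes. These counts include the peaks that chose the genes, all 4 of them around CG42807. In replicates 2 and 3 the windows held 38 and 33 summits at CG42807, as many as around 0.516% and 0.645% of genes. They held 34 and 28 at CG13334 (1.03% and 1.65% of genes), and 24 and 18 at CG6191 (5.56% and 11.6%). Of the distinct IDR summits in these 3 windows, 9 ranked 100 or better. Among those beyond the highest 9, the summit of rank 30 was intergenic, 5517 bp from the TSS of CG42808, with 255 and 193 in replicates 2 and 3. That of rank 31 was intergenic, 3864 bp from the CG42807 TSS, with 298 and 136. That of rank 42 was 2093 bp from the CG42808 TSS, with 248 and 162. Of the 17 distinct IDR summits in these windows, 1 had the core word, the outer CG13334 peak. The counts depend on the window. Around CG6191 there were 2 IDR summits within 10 kb, 18 within 40 kb and 16 when 20 kb was taken from either end of the gene, and around CG13334 there were 5 within 10 kb. When overlapping peaks were merged, the count was 3 at CG6191 and 10 at CG42807.

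Around Gpat4 there were 3 IDR summits, as many as around 7.69% of genes, and around CG44838 5, as many as around 2.07%. Within 10 kb CG44838 had 3. The other summits at Gpat4 were low. One lay 441 bp from the TSS of Rap2l (rank 1909, signal 107) and another 10 bp from that of RpL39, a ribosomal protein gene (rank 1948, signal 106). The Gpat4 peak was 10.6 times the highest of them. At CG44838 the next summit, of rank 223, lay 61 bp from the TSS of ghi, with 121 and 115 in replicates 2 and 3. The summits of rank 463 and 623 lay 551 bp from the TSS of CG3529 and 109 bp from that of CG3552, and that of rank 1437 was in an intron of CG44838, 7168 bp from its highest peak. Of the 5, 4 had the core word, those of rank 9, 223, 463 and 1437. The last 3 were the only ones with it among the 20 IDR summits of all windows outside the 8 peaks, a share near the 12.5% of all IDR peaks. The permissive lists had 14 and 20 summits around Gpat4, as many as around 25.8% and 7.7% of genes, and 19 and 19 around CG44838, as many as around 12.4% and 9.37%.

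**Figure D3:**
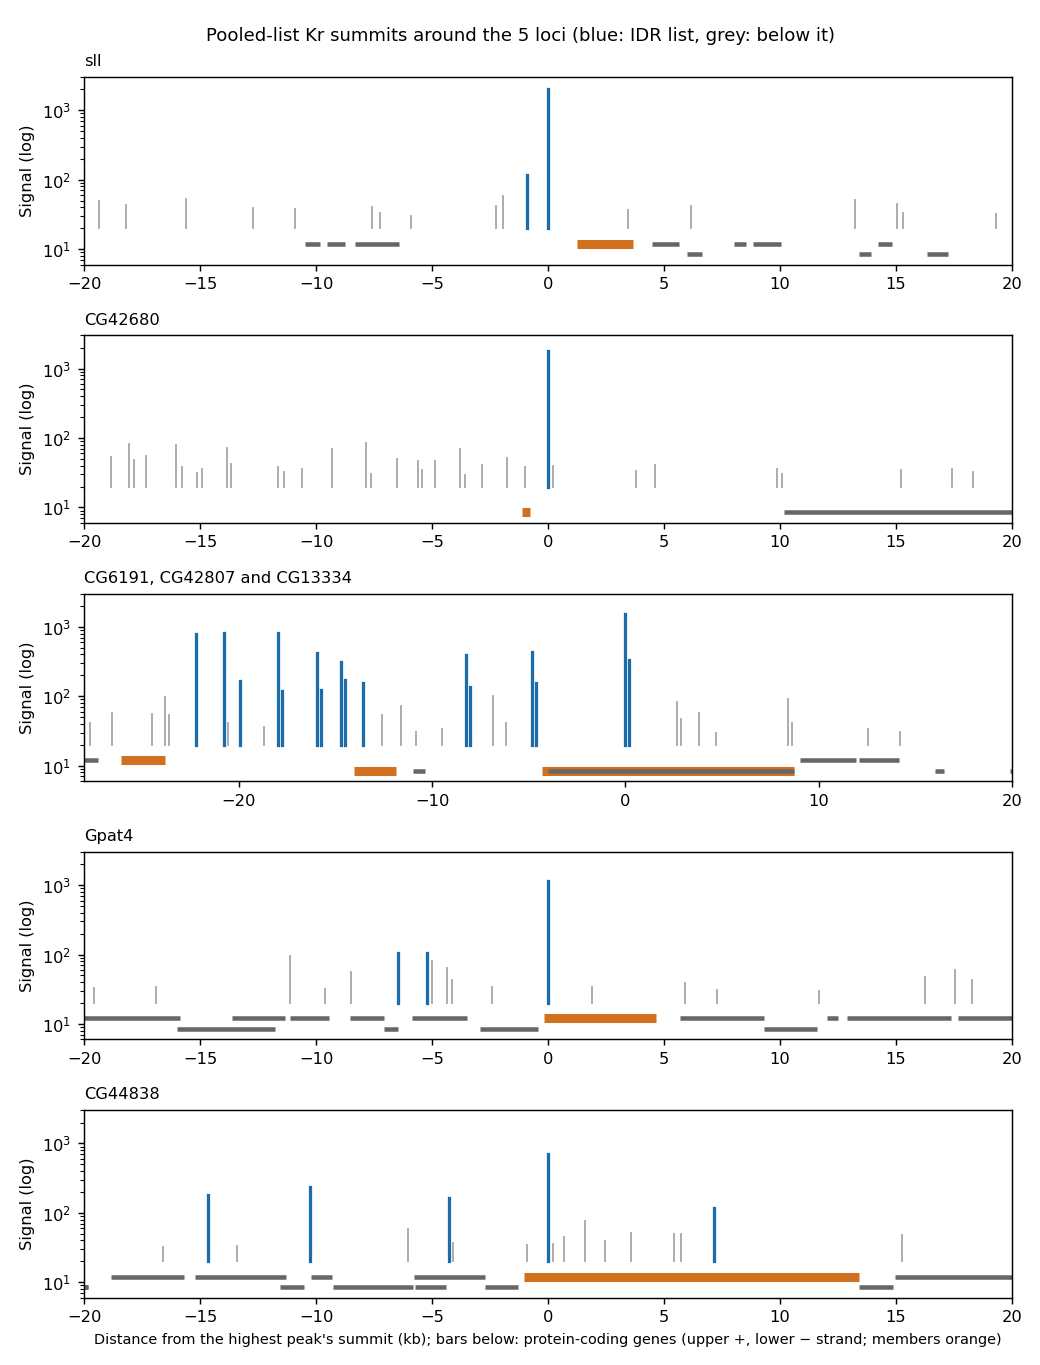
Summits of the pooled list around the 5 loci (vertical lines, height on a log scale of signal), by distance in kb from the highest peak, with protein-coding genes as bars below and the 7 genes in orange. Blue summits are in the IDR list. Single tall peaks mark sll, CG42680 and Gpat4, while the stretch with CG6191, CG42807 and CG13334 has 15 IDR summits in 22.2 kb.

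**Figure D4:**
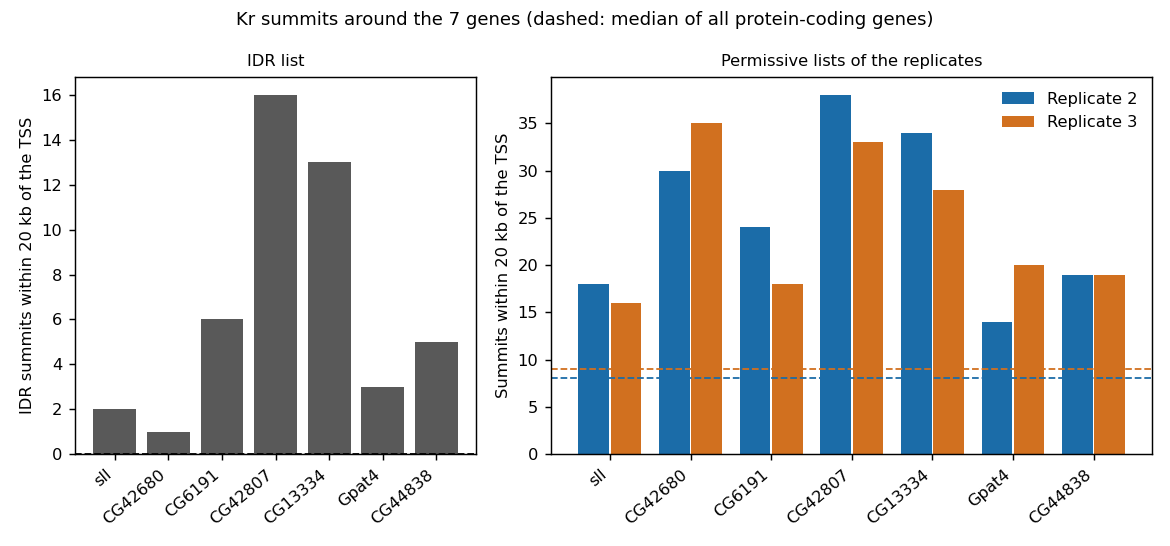
Number of summits within 20 kb of the TSS of each of the 7 genes, in the IDR list (left) and in the permissive lists of replicates 2 and 3 (right). Dashed lines are medians over 13945 protein-coding genes, 0 in the IDR list, 8 in replicate 2 and 9 in replicate 3, and the highest bars are those of CG42807, at 16, 38 and 33.

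The peaks of the 7 genes were wide in the IDR list and in replicate 2, but not in replicate 3. Of the 2102 IDR peaks, 1958 had the same width of 440 bp, and 12 (0.571%) were wider. These 12 were the 8 peaks described here, from 466 bp (inner CG13334) to 969 bp (outer CG13334), and 4 more, all in the stretch of 2R with CG42807. Of those 4, the entry of rank 68 has the same bounds as the CG6191 peak and a second summit, and those of rank 86 and 542 share one interval of 746 bp. The sll peak was 715 bp wide. The peak at Kr, of rank 4, was 430 bp wide. In replicate 2 the widths of the 8 ran from 472 bp at CG42680 to 1104 bp at the outer CG13334 peak (median 626.5 bp, against 460 bp over matched IDR peaks). In replicate 3 they ran from 298 bp at CG44838 to 532 bp at sll (median 347 bp, against 410 bp). Replicate 3 was narrower at 8 of 8, as at 96.4% of matched IDR peaks, and sll alone of the 8 was above the list's median there. Width comes from the same peak calling as the signal.

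**Figure D5:**
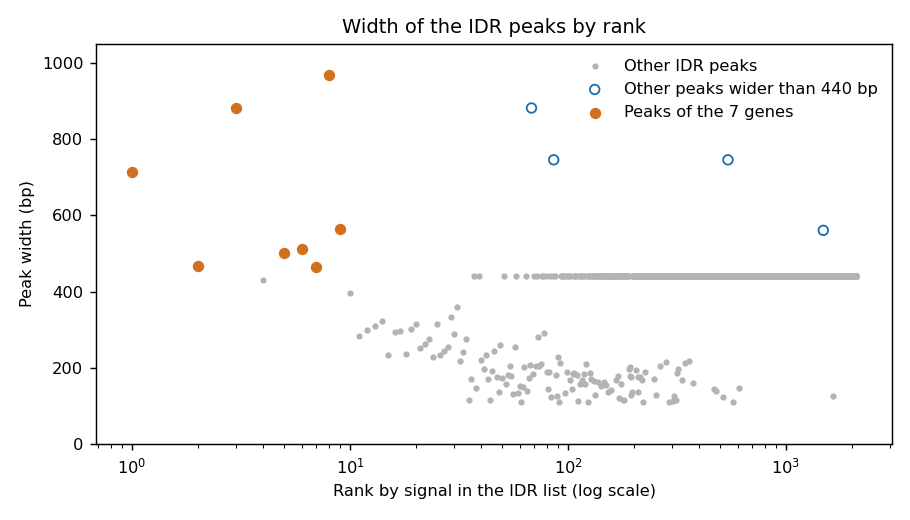
Width in bp of all 2102 IDR peaks by rank (log scale). The 8 peaks of the 7 genes (orange) lie at 466 to 969 bp, and most others sit at 440 bp or below. The 4 further entries wider than 440 bp (open circles) share the 2R stretch and overlap other wide entries.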

How the data were processed

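Per the deposited text lists of files, the permissive peak lists derive from the alignments of one replicate or of both and from a further file that is not analysed here, and there is an IDR list, for dm6 and dm3. The sources used here name no aligner, peak caller or IDR threshold. The authors deposited a signal value for each peak, the −log10 of a q-value (q from 0.00049 to 0.00325 in the IDR list) and a summit offset. Fragments were 200 to 800 bp, per the labels.

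Peaks were ranked by signal, and replicate summits matched within 250 bp. Ensembl release 115 (BDGP6, dm6 coordinates, starting at 1) gave the genes, and RefSeq the sequence. The RefSeq lengths of the arms are those of dm6. Python 3.11.15 was used. The counting steps were tested on simulated data. With 1 group and members chosen by signal, no test was run. Most counts stand beside the share of all IDR peaks or genes. The background gene windows start from each gene's outermost TSS. The members, the lists of words and of regulators, and the settings were chosen with earlier results of these data known. Named genes are the members, their nearest neighbours, listed regulators within 100 kb, the genes of ranks 4 and 10, and the 3 genes most like them. The regulators nearest but further than 100 kb and other genes in the windows were named after values were seen.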

Additional observations from a re-analysis of the deposited data

How the results depend on the processing

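Leaving out a replicate used the 2102 highest peaks of the other one. The distinct summits in the windows (28) were then 24 without replicate 2 and 29 without replicate 3, and 25, 36, 29 and 22 with windows of 10 kb, of 40 kb, around the gene body, and with overlapping peaks merged. The count of peaks with the core word (5 of 8) was the same with either replicate's summits, within 50 or 200 bp and over whole peaks, was 4 for AAGGGTTA and 0 for the reversed word TTGGGAA. All 8 peaks ranked in the first 50 with either replicate alone and in the first 20 of both, and 6 in the first 9 of both. The median width (538 bp) was 347 bp without replicate 2 and 626.5 bp without replicate 3. The count of peaks near a TSS (1 of 8) was 0 within 100 bp and 3 within 1000 bp. No share of all IDR peaks at these limits stands beside them, so nothing is read from these counts. The count with a regulator (1 of 8) was 0 within 50 kb. For single genes, 10 of 50 alternative values moved by over 1.5 times, among them 1 IDR summit at sll and 2 at CG42680 without replicate 2, and 4 at CG42680, 18 at CG6191 with a window of 40 kb. No paired analysis was possible because there is 1 group. Having 2 replicates and the an unknown depth limits the precision of every signal.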

Other observations

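The dm3 IDR list, used without converting coordinates, gave nearly the same values at the top. It comes from the same experiment and holds 1552 peaks, against 2102 in dm6. Only arm and signal were compared, so the peaks were not matched by position. Its 9 highest peaks lay on the same arms, rank by rank, as those of the dm6 list. The signals of equal rank differed by 0.2% (rank 4) to 1.36% (rank 5, that of Gpat4 in dm6). At rank 1 the signal was 1988 in dm3 and 1998 in dm6, and at rank 9 it was 694 and 695. The median over the ranks of the 8 peaks was 969.5 in dm3 and 975 in dm6.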
